A study of Mus musculus with 8 samples.

Results

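The genes described here encode the glucose transporters and enzymes that carry sugar carbon through glycolysis, the pentose phosphate pathway and the tricarboxylic acid (TCA) cycle. The list holds 47 genes, and each had 1 row among the 38392 gene identifiers of the deposited table. Of these, 20 belonged to glycolysis and its entry step, 6 to lactate and pyruvate, 5 to the pentose phosphate pathway, and 16 to the TCA cycle and citrate. The rule names the genes by function and uses no measured value, although the list was drawn up with earlier results of these data known.

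The study asked how the transcriptome of eosinophils in the gut differs from that of eosinophils in the marrow where they form. Bulk RNA sequencing was done on eosinophils sorted by flow cytometry from 4 wildtype C57/BL6 female mice per tissue, with no treatment or transgene in either group. Bone marrow cells were sorted unselected as CD11b+Ly6G-Ly6C-SiglecF+SSChi after flushing of the long bones. Small intestinal cells went through removal of the epithelium with EDTA, digestion with collagenase at 37 °C and enrichment on CD11b beads before a CD11b+MHC-II-SiglecF+SSChi sort, so tissue and handling cannot be told apart. The labels gave no age. Column names of the table stand for the libraries, with the marrow ones being BM_1, BM_3, BM_4 and BM_5 and the intestinal ones SI_6, SI_7, SI_10 and SI_11. Values below always follow that order.

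In glycolysis, glucose enters through facilitated transporters, is trapped by hexokinases, committed by phosphofructokinase and split into trioses that end as pyruvate. Lactate dehydrogenase and the lactate exporter MCT4 (Slc16a3) take pyruvate out of the cell as lactate, while pyruvate dehydrogenase feeds it to the TCA cycle. The pentose phosphate pathway diverts glucose 6-phosphate to ribose and to NADPH, which granulocytes spend in the oxidative burst, and many glycolytic genes are known targets of the hypoxia-inducible factors.

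The libraries were first checked against marker genes. Reads recovered from the deposited values ranged from 11508002 to 21289164 per library, and levels are given as normalised counts, the reads divided by the library's size factor. A gene is said to be called higher or lower in small intestine where its limma test across all genes passed the threshold given below. Bone marrow libraries carried the transcripts of neutrophil precursors at high level: the 11 genes of that list, among them Mpo, Elane, Ngp and S100a9, summed to between 495516 and 638601 normalised counts per library, against 756.5 to 1044 in small intestine. The 9 eosinophil markers summed to between 2632 and 4374 in bone marrow and between 16985 and 25237 in small intestine, where Ccr3 averaged 16351 normalised counts against 70.9 in bone marrow. Of these 9 genes, 3 were called higher and 5 lower in small intestine. The falls were in the granule and ribonuclease genes, such as Prg2 and Epx, with means of 146.6 and 20.6 against 1831 and 349.9. Dividing-cell genes (8 of 8 called lower) summed to between 48903 and 52386 in bone marrow and between 3258 and 8517 in small intestine. In the other direction, 9 of 9 epithelial genes were called higher in small intestine (5507 to 37640 summed, against 194.3 to 212.9), as were 8 of 9 macrophage and dendritic genes (15584 to 22712, against 732.6 to 937.8), 7 of 8 fibroblast and smooth muscle genes (746.1 to 2168, against 29.7 to 141.3) and 11 of 12 dissociation response genes (87200 to 114275, against 1542 to 2007). Most of the macrophage and dendritic sum in small intestine came from Adgre1, which averaged 13672 normalised counts there against 160.9 in bone marrow. Cd74 followed at 3141, and the other genes of that list averaged from 16.5 (Fcgr1) to 1301 (Csf1r) in small intestine. Adgre1 is not particular to macrophages and dendritic cells, since the study identified human eosinophils partly by EMR1, its human product. Erythroid genes summed to between 646.9 and 812.1 in bone marrow and between 52.2 and 128.8 in small intestine, with 5 of 7 called lower and Hba-a1 and Hba-a2 at no more than 3 reads in small intestine. The sums of B and plasma cell genes (1707 to 2027 against 1845 to 4005) and of T cell genes (21.1 to 56.7 against 29.6 to 63.4) overlapped between tissues, but within the former the plasma cell gene Jchain averaged 14.7 normalised counts against 1471, bone marrow first, and Cd79b averaged 152.1 against 22.9. The library labels are kept as given, and the part of these other cell types in the results below was not tested. In bulk samples, fewer cells of a type and less RNA per cell cannot be told apart.

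Across the 47 genes, 9 were called higher in small intestine, 22 lower and 16 in neither direction (limma on the deposited log2 values, Benjamini-Hochberg adjusted p below 0.05 over 38392 genes). Over the whole table, 22.0% of genes were called higher and 12.9% lower, and the difference between tissues had a median of 0.37 on the deposited log2 scale. The 47 genes had a median difference of -0.56. All 47 averaged at least 10 normalised counts, and among the 16308 genes at that level 35.3% were called higher and 28.1% lower, with a median difference of 0.16. Judged only by whether the libraries of each tissue overlapped, 12 of the 47 lay apart and higher and 22 apart and lower. Over all 38392 genes, which include those with a mean below 10, the shares were 20.3% and 13.9%. The balance depended on scaling: after each library was centred on its median over all genes, the median difference of all genes moved by 0.90, and 4 of the 47 were called higher and 29 lower, beside 11.2% and 26.6% of all genes. Centring on genes with a mean of at least 10 changed the counts less, with 8 higher and 23 lower. Of all 38392 genes, 7335 and 5008 were then called, and the median difference was -0.62 in the 47 genes and 0.31 in all. Quantile normalisation gave 7 and 25, beside 5954 and 7032 of all 38392 genes, with medians of -0.64 and -0.03. These whole-table counts include genes with a mean below 10, and shares of the genes above that level were not taken under either scaling. The plot of differences by pathway gives all 47.

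**Figure D1:**
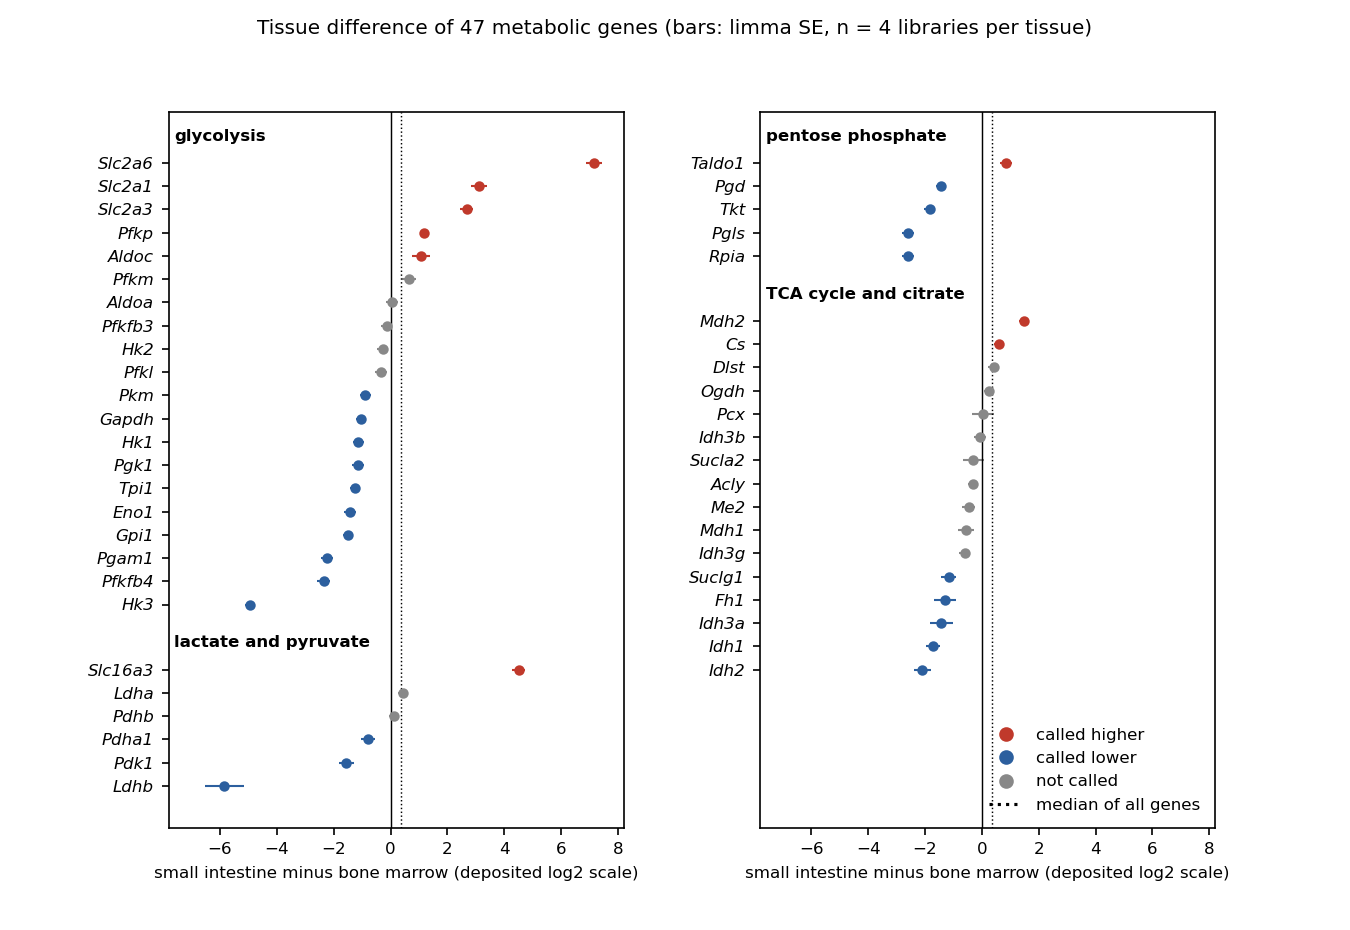
Tissue difference of each of the 47 genes (horizontal axis, value in small intestine less that in bone marrow, log2 scale of the deposited table), with the limma standard error as bars, by pathway; red, blue and grey points were called higher, lower and not called, and the dotted line is the median of all genes, 0.37. Glucose transporters and Slc16a3 stand at the right end, Hk3 and Ldhb at the left end.

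In each of the 4 pathways more genes were called lower than higher, and differences between pathways were not tested. Glycolysis had 5 genes called higher and 10 lower (median difference -0.60), lactate and pyruvate 1 and 3 (-0.34), the pentose phosphate pathway 1 and 4 (-1.84), and the TCA cycle and citrate group 2 and 5 (-0.39). As shares of their pathways these were 25% and 50% in glycolysis, 16.7% and 50% in lactate and pyruvate, 20% and 80% in pentose phosphate, and 12.5% and 31.2% in the TCA group, beside 35.3% and 28.1% of all genes with a mean of at least 10. As a share of all reads that did not come from ribosomal RNA, the glycolytic genes took 0.489% to 0.555% in bone marrow libraries and 0.237% to 0.293% in small intestinal ones. Pentose phosphate genes went from 0.153% to 0.18% down to between 0.0523% and 0.0586%. For lactate and pyruvate genes the ranges were 0.0805% to 0.0894% and 0.106% to 0.127%, with small intestine above bone marrow. TCA cycle and citrate genes overlapped, at 0.175% to 0.199% and 0.165% to 0.205%.

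Promoter sequence is shown for 6 genes at the extremes of these changes, since the transporters and Slc16a3 rose together while Ldhb and Hk3 had the largest falls of their pathways, with Ldha as the partner of Ldhb. The stretches come from RefSeq on GRCm38.p6, lie within the 250 bases before the annotated start, run 5′ to 3′ on the strand of the gene and leave out bases that GENCODE M21 annotates as exon. Capitals mark the letters ACGTG or GCGTG on either strand (CACGT and CACGC are the same letters read on the other strand). Hypoxia-inducible factors are known to bind this core, but the letters are not particular to them.
Slc2a1, chr4:119108495-119108710, plus strand: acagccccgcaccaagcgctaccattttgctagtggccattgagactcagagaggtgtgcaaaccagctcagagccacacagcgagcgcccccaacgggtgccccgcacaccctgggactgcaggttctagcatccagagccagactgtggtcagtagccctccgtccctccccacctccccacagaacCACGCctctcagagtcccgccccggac
Slc2a6, chr2:27027999-27028248, minus strand: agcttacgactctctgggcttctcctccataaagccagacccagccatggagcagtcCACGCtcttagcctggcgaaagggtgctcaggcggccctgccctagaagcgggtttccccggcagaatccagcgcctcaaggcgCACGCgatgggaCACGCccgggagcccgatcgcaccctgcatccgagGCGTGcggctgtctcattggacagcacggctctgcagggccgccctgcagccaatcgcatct
Slc16a3, chr11:120948817-120949052, plus strand: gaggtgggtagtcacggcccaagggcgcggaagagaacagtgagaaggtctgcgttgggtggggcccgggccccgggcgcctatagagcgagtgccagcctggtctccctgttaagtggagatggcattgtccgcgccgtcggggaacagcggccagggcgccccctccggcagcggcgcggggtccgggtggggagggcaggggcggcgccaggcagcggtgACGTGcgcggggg
Ldha, chr7:46846832-46847081, plus strand: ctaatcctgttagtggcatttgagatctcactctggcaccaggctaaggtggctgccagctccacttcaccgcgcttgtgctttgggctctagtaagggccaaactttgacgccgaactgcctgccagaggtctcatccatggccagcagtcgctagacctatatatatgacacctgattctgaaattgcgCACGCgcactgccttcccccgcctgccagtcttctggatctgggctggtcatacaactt
Ldhb, chr6:142507958-142508207, minus strand: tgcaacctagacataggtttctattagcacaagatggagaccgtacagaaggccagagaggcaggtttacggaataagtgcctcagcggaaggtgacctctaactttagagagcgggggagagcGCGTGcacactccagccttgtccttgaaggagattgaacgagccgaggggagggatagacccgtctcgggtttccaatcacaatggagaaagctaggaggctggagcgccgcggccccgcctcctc
Hk3, chr13:55021386-55021635, minus strand: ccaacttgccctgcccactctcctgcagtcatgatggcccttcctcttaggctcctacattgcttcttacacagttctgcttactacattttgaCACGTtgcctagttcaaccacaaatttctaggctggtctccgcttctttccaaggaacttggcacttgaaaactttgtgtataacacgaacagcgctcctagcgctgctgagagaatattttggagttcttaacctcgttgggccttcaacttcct

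In Slc2a1 and Slc16a3, a further match in the 250-base window fell wholly or partly in an annotated exon and is not printed, and neither is the window of a further RefSeq start of Ldha, which held 5 matches and alone puts Ldha in the counts of ACGTG and CACGTG below. RefSeq windows were matched for 44 of the 47 genes, which left out Idh3a, Me2 and Slc2a3. A gene was counted where any of its windows held the letters. ACGTG was present in 17 of the 44 genes (38.6%), compared with 18.5% of 27025 genes with a window and 20% of 17492 protein-coding genes. GCGTG was present in 29 of the 44 (65.9%), compared with 30.9% and 36.7%. The E-box CACGTG, which contains ACGTG, was present in 5 (11.4%), compared with 6.86% and 7.61%. Genes that rose and genes that fell both held these letters: by pathway, GCGTG was in all 5 pentose phosphate genes, 4 of which were called lower. ACGTG was in none of them. These letters are a description of the windows, and no binding was measured.

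Glucose transporters rose the most among glycolytic genes. Slc2a1 (GLUT1, the basal glucose transporter; chr4:119108711-119137983) had 231.4, 213.3, 277.5 and 256.6 normalised counts in bone marrow against 1357, 1896, 2519 and 3127 in small intestine. Every small intestinal library was above every bone marrow library, and the means differed 9.09-fold (log2 difference 3.10 ± 0.28 SE, limma adjusted p = 6.19e-05, n = 4 per tissue). Slc2a3 (GLUT3, a high-affinity transporter; chr6:122727809-122801640) went from 619.8, 736.3, 819.1 and 780.9 to 3520, 4442, 4967 and 6402, with no overlap (2.68 ± 0.23, adjusted p = 4.88e-05).

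Slc2a6 (GLUT6; chr2:27021363-27027998) was scarce in bone marrow, with 7.66, 9.78, 5.74 and 7.44 normalised counts from 39 reads in all. In small intestine it reached 981.3, 1678, 1978 and 1880, a 213-fold ratio of means (7.16 ± 0.27, limma adjusted p = 8.09e-07). It was the largest rise of the 47 genes. Shares were taken of the summed reads per kb of exon of Slc2a1, Slc2a3 and Slc2a6. Slc2a6 went from 1.39% ± 0.393 (SD, n = 4) to 28.1% ± 3.2, while Slc2a3 went from 58.5% ± 2.39 to 37.3% ± 3.02 (exact 2-sided permutation test over 70 assignments, p = 0.0286 for each, the smallest it can give, adjusted p = 0.0364 over 14 shares). The share of Slc2a1, 40.1% ± 2.54 in bone marrow against 34.6% ± 2.56 in small intestine, overlapped between tissues (exact p = 0.0571, adjusted p = 0.0667).

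**Figure D2:**
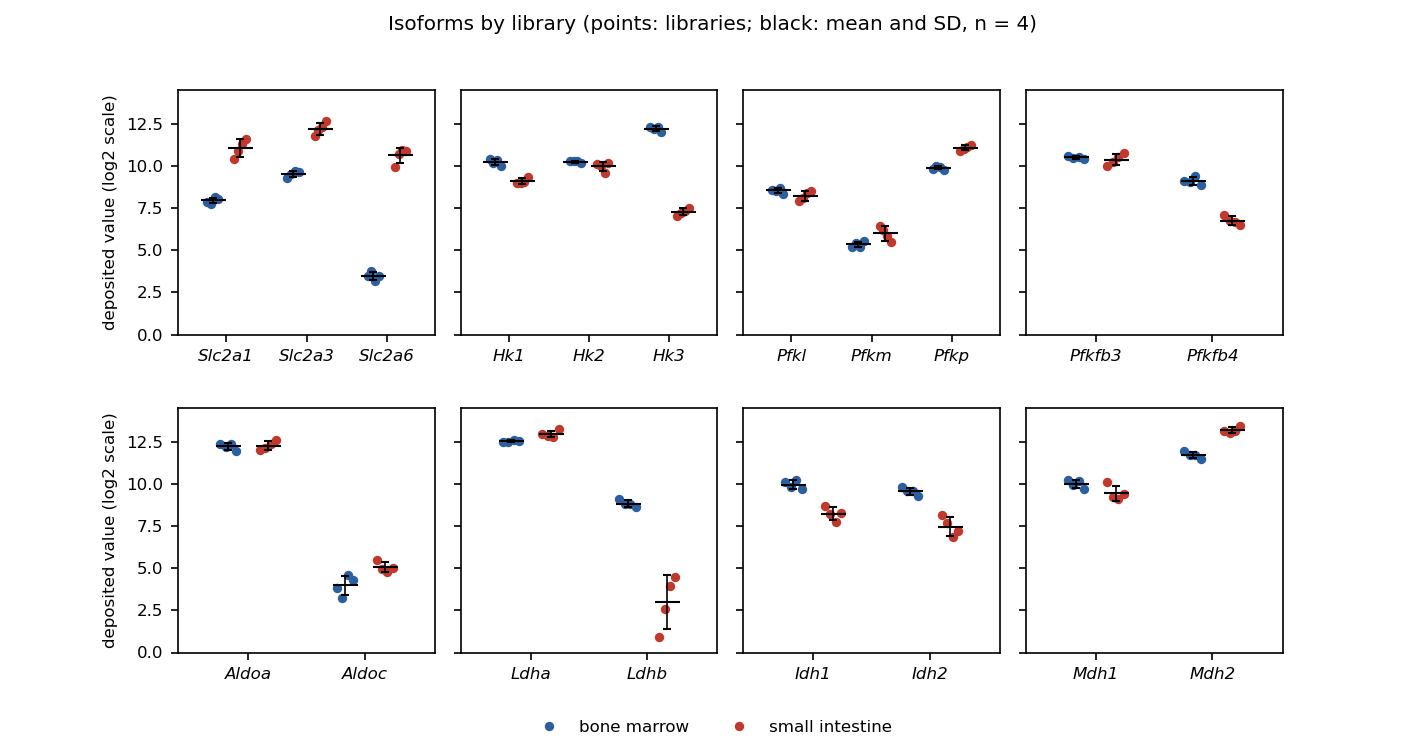
Deposited value on a log2 scale (vertical axis) of each isoform in 8 families, with 4 bone marrow libraries in blue and 4 small intestinal libraries in red, and the mean and SD in black. Slc2a6, Hk3, Pfkfb4, Ldhb and Mdh2 show no overlap between tissues, while Hk2, Pfkfb3 and Aldoa do.

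The hexokinases, which trap glucose in the cell, differed in the size of their change. Hk3 (chr13:55005985-55021385), the hexokinase found mainly in myeloid cells, had 5143, 4737, 5101 and 4071 normalised counts in bone marrow against 126.6, 144.2, 157.5 and 180.2 in small intestine. The tissues were far apart, with a 31.3-fold higher mean in bone marrow (-4.94 ± 0.19, limma adjusted p = 1.02e-06), and Hk3 was the largest fall in glycolysis. Hk1, the mitochondria-bound housekeeping form, went from 1332, 1137, 1319 and 1028 to 504.3, 502, 528.4 and 659 (-1.13 ± 0.19, adjusted p = 0.00196). Hk2 (chr6:82725025-82774454), the inducible form, had 1239, 1250, 1250 and 1148 in bone marrow against 1110, 1022, 771.2 and 1164 in small intestine, and was not called (-0.28 ± 0.20, adjusted p = 0.316), except after median-centring over all genes, where it was called lower (-1.18, adjusted p = 0.0362).

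The make-up of the family changed with these levels. Per kb of exon, Hk3 supplied 78.9% ± 0.631 of the summed Hk1, Hk2 and Hk3 reads in bone marrow against 15.1% ± 2.47 in small intestine. Hk2 went from 12.5% ± 0.823 to 61.5% ± 4.82, and Hk1 from 8.59% ± 0.325 to 23.4% ± 2.4. Each of the 3 shares had an exact permutation p = 0.0286 and an adjusted p = 0.0364. The neutrophil precursor sum given above was highest in the same tissue as Hk3, between 495516 and 638601 in bone marrow, and the part of those cells in this shift was not tested.

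Phosphofructokinase, the committing step, moved toward the platelet-type subunit. Pfkp (chr13:6579768-6648777) had 907.9, 999.1, 973.2 and 877.6 normalised counts in bone marrow against 1911, 2072, 2246 and 2374 in small intestine, without overlap (1.19 ± 0.17, limma adjusted p = 0.000844), although the call was lost after median-centring over all genes (0.29, adjusted p = 0.645). The liver-type subunit Pfkl had 384.6, 365.9, 416.3 and 319.8 against 234.7, 264.9, 330.4 and 362.7, and was not called (-0.33 ± 0.21, adjusted p = 0.269), except lower after median-centring (-1.23, adjusted p = 0.0284). Muscle-type Pfkm was scarce in both tissues, at 32.9, 39.8, 33.5 and 42.8 against 84.1, 70.7, 54.7 and 40.3 (0.65 ± 0.25, adjusted p = 0.0797, though 0.0277 with a filter on low genes). Within the family, Pfkp took 51.2% ± 1.34 of reads per kb in bone marrow against 71.6% ± 1.02 in small intestine, and Pfkl 40.6% ± 2.58 and 19.8% ± 2.33 (exact p = 0.0286 and adjusted p = 0.0364 for each). The share of Pfkm, 8.2% ± 1.45 and 8.55% ± 3.25, did not separate the tissues (exact p = 0.886).

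The bifunctional enzymes that set fructose 2,6-bisphosphate, the activator of phosphofructokinase, also shifted against each other. Pfkfb4 had 546.3, 520.4, 678.4 and 453.7 normalised counts in bone marrow against 134.3, 104, 97.4 and 85.3 in small intestine (-2.35 ± 0.22, limma adjusted p = 7.45e-05). Pfkfb3, the form with the strongest kinase activity, was present at 1559, 1415, 1498 and 1356 against 1023, 1190, 1446 and 1710 and overlapped (-0.14 ± 0.21, adjusted p = 0.619). Pfkfb3 thus made up 63.3% ± 3.15 of the pair per kb in bone marrow against 88.6% ± 4.17 in small intestine (exact p = 0.0286, adjusted p = 0.0364).

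**Figure D3:**
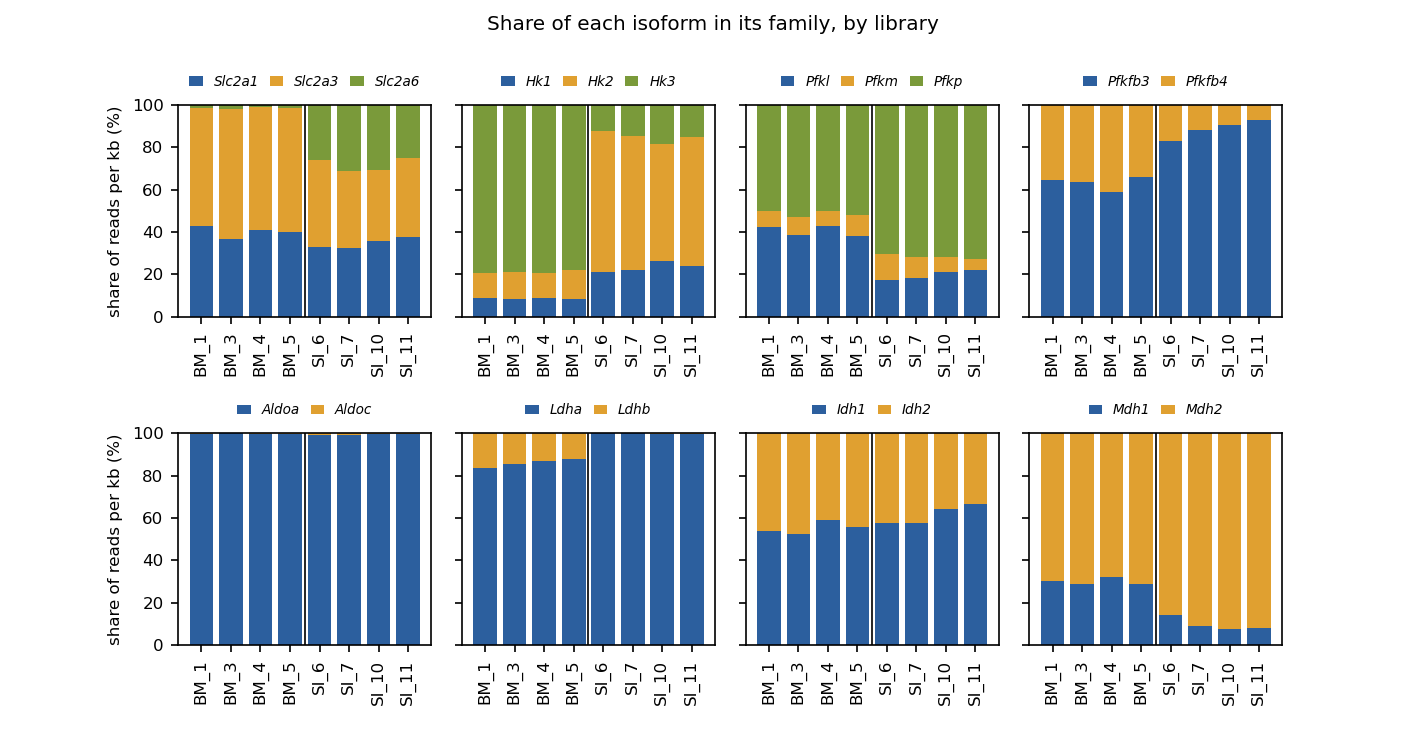
Share of each isoform in the summed reads per kb of exon of its family (vertical axis, percent, from 0) in each of the 8 libraries, with a line between bone marrow on the left and small intestine on the right. Hk3 gives way to Hk2, from 78.9% and 12.5% in bone marrow to 15.1% and 61.5% in small intestine on average, and Ldhb and Mdh1 lose share in every small intestinal library.

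Aldolase, which splits the hexose bisphosphate, was supplied almost wholly by a gene that was not called. Aldoa had 5313, 4707, 5333 and 3961 normalised counts in bone marrow against 4028, 4417, 5372 and 6096 in small intestine (0.04 ± 0.21, limma adjusted p = 0.916), and it was called lower under quantile normalisation (-0.54, adjusted p = 0.0294). Aldoc, the brain-type form, had 10.7, 5.87, 20.1 and 15.8 against 40.4, 27.7, 24.1 and 28.4, a small rise in a scarce gene (1.08 ± 0.32, adjusted p = 0.029). That call was lost when any of BM_1, BM_3, SI_6, SI_7 or SI_11 was left out (adjusted p from 0.0539 to 0.0776) and after median-centring (0.18) or quantile normalisation (0.22, adjusted p = 0.637). Aldoa still made up 99.8% ± 0.119 of the pair in bone marrow against 99.4% ± 0.227 in small intestine, a difference that did not keep its call in every set of 7 libraries.

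Of the remaining steps of glycolysis, Gpi1, the isomerase before phosphofructokinase, and Tpi1, Gapdh, Pgk1, Pgam1, Eno1 and Pkm, which follow aldolase, were all called lower, here and under each alternative tested, with differences from -2.23 (Pgam1) to -0.88 (Pkm). Gapdh, the triose dehydrogenase that yields NADH, had 16267, 15827, 14949 and 13876 normalised counts in bone marrow against 6648, 6804, 7332 and 9037 in small intestine (-1.04 ± 0.19, limma adjusted p = 0.0025). Pgk1, the first step that yields ATP, went from 1339, 1386, 1388 and 1160 to 552.3, 489.5, 590.7 and 775.2 (-1.14 ± 0.20, adjusted p = 0.00253). Pkm, the pyruvate kinase of most non-hepatic tissues, went from 6509, 5863, 6380 and 5295 to 2739, 3041, 3338 and 4049 (-0.88 ± 0.20, adjusted p = 0.00812).

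No small intestinal library reached the lowest bone marrow library for any of these 7 genes. Gpi1 averaged 9001 ± 886.4 (SD, n = 4) against 3182 ± 365.9, Eno1 5360 ± 714.8 against 2024 ± 378.2, Tpi1 1116 ± 146.1 against 464.1 ± 45.8, and Pgam1 739.2 ± 117.8 against 154.5 ± 22.5. Several of these genes share sequence with other annotated genes. In Pgk1, 52.8% of all 75-base windows of its annotated transcripts also occurred in another gene's transcript (mostly Pgk1-rs7). The figure was 34.9% in Pgam1, 23.0% in Eno1, 22.6% in Gapdh, 17.8% in Pkm and 10.8% in Gpi1. In Pkm and Gpi1 the largest part was shared with a gene annotated over the same exons, Gm49759 (10.6%) and Gm26762 (6.71%). Counts of these genes thus carry an uncertainty that the replicates do not show.

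The step beyond pyruvate changed at lactate. Slc16a3 (chr11:120948480-120960868), the lactate exporter of highly glycolytic cells, had 303.4, 277.8, 272.7 and 258.5 normalised counts in bone marrow against 4779, 5973, 7326 and 7976 in small intestine. The rise was 23.4-fold in the means and clear of overlap in every library (4.51 ± 0.22, limma adjusted p = 2.34e-06). Ldha (chr7:46841475-46855627), the lactate dehydrogenase subunit that favours lactate formation, had 5685, 5713, 6144 and 5946 in bone marrow against 7879, 7257, 7102 and 9584 in small intestine. All 4 small intestinal values of Ldha were above the bone marrow ones, yet the difference was not called (0.43 ± 0.18, adjusted p = 0.105), and its sign turned under median-centring over all genes (-0.47) and quantile normalisation (-0.27). Ldha was called higher with a filter on low genes, another prior or voom (adjusted p from 0.000246 to 0.0287). Without SI_10 it was also called higher (0.48, adjusted p = 0.0236), which raised the count of this pathway to 2.

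Ldhb (chr6:142490249-142507957), the subunit that favours pyruvate, fell to a few reads in the small intestinal libraries. It had 536.3, 451.9, 436.3 and 395.1 normalised counts in bone marrow against 0, 2.77, 12 and 19 in small intestine, from 29 reads in all, none of them in SI_6. The means differed 53.9-fold (-5.84 ± 0.70, adjusted p = 0.00029), and the size of the log2 difference leans on the library at 0. Ldha accounted for 86% ± 1.89 of the pair per kb in bone marrow against 99.8% ± 0.204 in small intestine (exact p = 0.0286, adjusted p = 0.0364). A processed copy, Gm5514, shared 12.6% of the 75-base windows of Ldhb.

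Entry into the mitochondrion showed smaller changes. Pdk1, a kinase that switches pyruvate dehydrogenase off, had 640.5, 491.1, 593.3 and 578.3 normalised counts in bone marrow against 296.9, 170.6, 135.6 and 194.4 in small intestine (-1.56 ± 0.26, limma adjusted p = 0.00179). Pdha1, the catalytic alpha subunit, was called lower (-0.80 ± 0.25, adjusted p = 0.0381), but SI_6, at 653.8, lay above the lowest bone marrow library, at 648.9, and the call was lost without any of BM_1, BM_3, BM_4, SI_7, SI_10 or SI_11 (adjusted p from 0.0611 to 0.0994). Exons of Map3k15 on the other strand cover 16.1% of Pdha1, whose reads could not be told apart if counting ignored strand. Pdhb, the beta subunit, overlapped (991.8 ± 45.8 against 1075 ± 97.9, SD, n = 4, adjusted p = 0.625).

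The pentose phosphate pathway was the most one-sided of the 4. Pgls, the lactonase of the oxidative branch, averaged 552.2 ± 84.5 normalised counts in bone marrow against 88.9 ± 17.2 in small intestine (-2.59 ± 0.22, limma adjusted p = 4.34e-05), with 18.1% of its windows shared with the overlapping gene Fam129c. Pgd, which yields NADPH and ribulose 5-phosphate, had 8814, 8048, 8859 and 7225 against 2984, 2939, 2759 and 3474 (-1.44 ± 0.18, adjusted p = 0.000371). Both of these were lower in all 4 small intestinal libraries than in any bone marrow library.

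In the non-oxidative branch, Rpia, the ribose 5-phosphate isomerase, showed the largest fall of the pathway, from 985.3, 920.2, 1026 and 846.9 to 191, 129, 136.7 and 157.6 (-2.60 ± 0.20, adjusted p = 2.35e-05). Tkt, the transketolase that returns pentoses to glycolysis, went from 6462, 6524, 6843 and 5582 to 1728, 1614, 1692 and 2055 (-1.84 ± 0.18, adjusted p = 9.46e-05). Taldo1, the transaldolase that works beside it, ran the other way. It had 1563, 1641, 1670 and 1150 in bone marrow against 2312, 2543, 2711 and 3173 in small intestine (0.84 ± 0.21, adjusted p = 0.0133), with the sign turned after median-centring over all genes (-0.06). Per kb of exon, Tkt stood at 863.7 in bone marrow against 241 in small intestine, and Taldo1 at 693.6 and 1237, so their order reversed between tissues.

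In the TCA cycle, 2 of 16 genes were called higher. Mdh2 (chr5:135778480-135790398), the mitochondrial malate dehydrogenase, had 3881, 3394, 3309 and 2802 normalised counts in bone marrow against 8907, 8366, 8941 and 11095 in small intestine (1.48 ± 0.19, limma adjusted p = 0.000484), a call lost after median-centring over all genes (0.58, adjusted p = 0.331). Cs, the citrate synthase that opens the cycle, went from 3124, 2991, 3038 and 2635 to 4397, 4465, 4432 and 4548 (0.60 ± 0.17, adjusted p = 0.0219), but its call was lost under quantile normalisation (0.16) and under centring on genes with a mean of at least 10 (0.54, adjusted p = 0.0671), and its sign turned after median-centring over all genes (-0.30). Both genes were apart between tissues in all 8 libraries as deposited.

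Mdh1, the cytosolic malate dehydrogenase, had 1205, 991.9, 1123 and 820 against 1077, 586.6, 541.5 and 682.7 and was not called (-0.56 ± 0.27, adjusted p = 0.15). Within the pair, the cytosolic form made up 30% ± 1.49 of the pair per kb in bone marrow against 9.71% ± 3.15 in small intestine (exact p = 0.0286, adjusted p = 0.0364). The mitochondrial form thus held the larger share in all 8 libraries, with SI_6 at 14.4% Mdh1 and the other 3 between 7.75% and 8.87%.

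Of the 5 isocitrate dehydrogenase genes, 3 were called lower. Among the NADP-dependent forms, cytosolic Idh1 went from 1111, 881, 1179 and 841.4 to 407.2, 289.8, 210 and 310.5 (-1.73 ± 0.25, limma adjusted p = 0.000807) and mitochondrial Idh2 from 889.5, 750.6, 757.9 and 621 to 277.3, 198.3, 110.5 and 144.6 (-2.09 ± 0.30, adjusted p = 0.000769), the largest fall of the cycle. They fell side by side, and the share of Idh1 in the pair overlapped between tissues (55.3% ± 3.0 and 61.6% ± 4.52, exact p = 0.0857, adjusted p = 0.0923). Among the subunits of the NAD-dependent enzyme, the catalytic Idh3a was called lower (-1.42 ± 0.41, adjusted p = 0.0274), Idh3g missed the threshold (-0.60 ± 0.20, adjusted p = 0.0512, though 0.00996 with a filter on low genes) and Idh3b was not called (-0.07 ± 0.22, adjusted p = 0.818). Idh3a had 451.9 in SI_6, above the lowest bone marrow library at 440.7, and 212.2, 116 and 131.6 in the other small intestinal libraries.

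Suclg1, a succinyl-CoA ligase subunit, and Fh1, the fumarase, completed the falls (-1.17 ± 0.25, limma adjusted p = 0.00668, and -1.29 ± 0.38, adjusted p = 0.0284). The remaining genes of the cycle and of citrate use were not called: Ogdh and Dlst, of the 2-oxoglutarate dehydrogenase complex, at 0.24 ± 0.17 and 0.42 ± 0.19, Sucla2 at -0.31 ± 0.37, and the malic enzyme Me2 at -0.47 ± 0.24. Acly, which turns citrate into cytosolic acetyl-CoA, had 1352, 1418, 1428 and 1226 normalised counts against 954, 1050, 1133 and 1224, with every small intestinal library below every bone marrow library but no call (-0.32 ± 0.18, adjusted p = 0.212, though 0.0467 with the filter). Pcx, the pyruvate carboxylase that refills the cycle, was scarce in both tissues, at 27.6, 23.5, 12.4 and 7.44 against 12, 19.4, 25.2 and 13 (0.05 ± 0.38, adjusted p = 0.927).

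**Figure D4:**
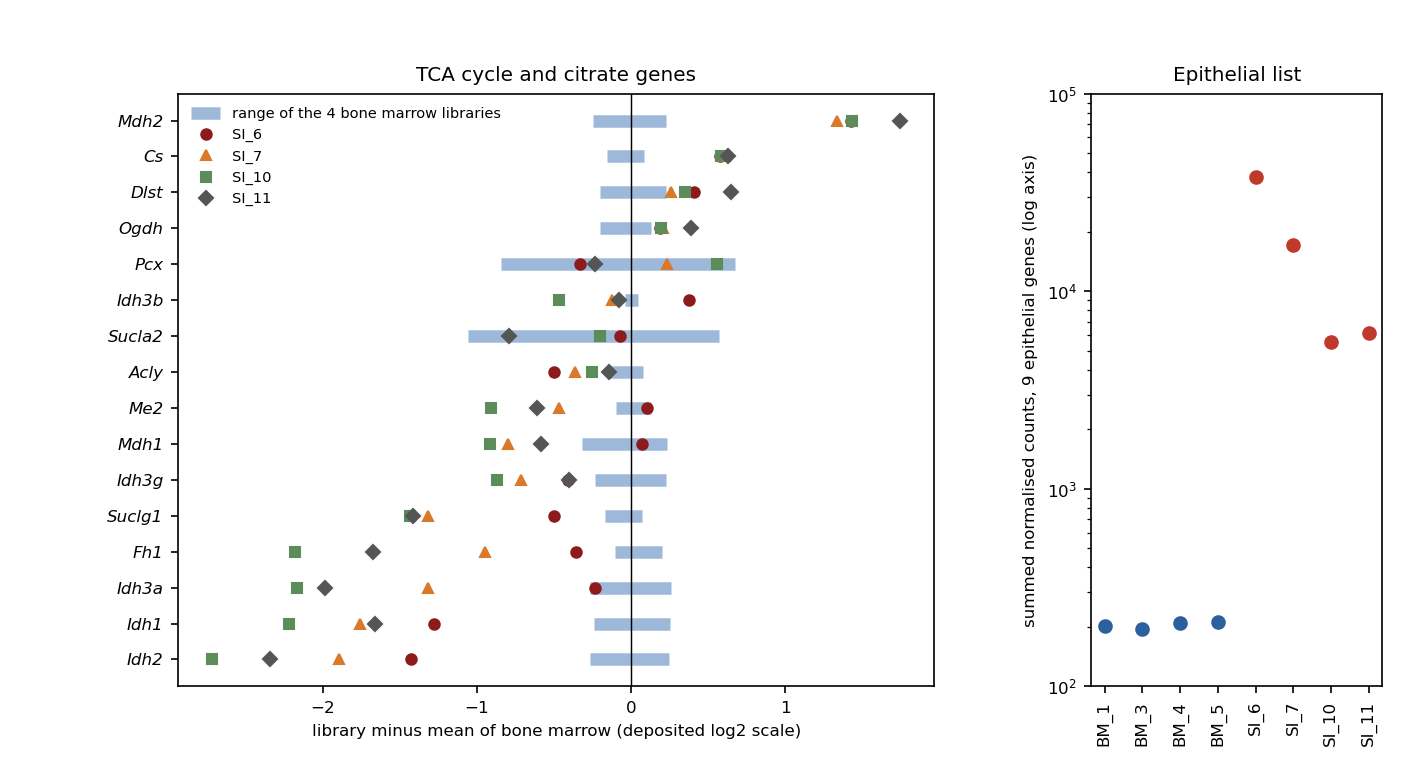
Left, the 16 TCA cycle and citrate genes in each small intestinal library as the difference from the bone marrow mean (deposited log2 scale), with the range of the 4 bone marrow libraries as blue bars; right, summed normalised counts of the 9 epithelial genes per library on a log axis. SI_6 is the rightmost small intestinal library for 9 of the 16 genes and has the highest epithelial sum, 37640.

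Libraries of the same tissue were not alike in these genes. SI_6 was the highest small intestinal library for 9 of the 16 TCA cycle and citrate genes, and SI_10 the lowest for 9. The epithelial sum was 37640, 17071, 5507 and 6166 normalised counts in the 4 small intestinal libraries, the dividing-cell sum 8517, 5023, 3414 and 3258, and the part of either in the levels of the TCA genes was not tested. Leaving out SI_6 raised the number of TCA genes called lower from 5 to 8, as Mdh1 (-0.77, limma adjusted p = 0.0185), Me2 (-0.66, adjusted p = 0.0166) and Idh3g (-0.66, adjusted p = 0.0314) passed. Leaving out BM_1, BM_3 or BM_4 lowered it to 3, since Idh3a and Fh1 then missed the threshold. Over the whole table, genes called lower moved the same way, from 4937 to 5166 without SI_6. Without BM_1, BM_3 or BM_4 they numbered 4281, 4392 and 4347.

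In bone marrow, BM_5 was the lowest library for 15 of 20 glycolytic, 5 of 5 pentose phosphate and 15 of 16 TCA genes. In small intestine, SI_11 was the highest for 15 of 20 glycolytic genes, and SI_6 the lowest for 12. These orders were within tissue and the summed shares of glycolytic and of pentose phosphate genes given above did not overlap between tissues.

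Other genes of the same pathways, 58 in number, were set beside the 47. Of these, 15 were called higher (25.9%), 16 lower (27.6%) and 27 in neither direction, with a median difference of 0.14. The shares over all genes were 22.0% and 12.9%. Of the 58, 49 averaged at least 10 normalised counts. Among all genes at that level 35.3% were called higher and 28.1% lower, and neither share of the 58 was above these. Other glycolytic and gluconeogenic genes had 11 higher and 5 lower (50% and 22.7%), and other lactate and pyruvate genes 2 and 4 (14.3% and 28.6%). Other pentose phosphate genes had 0 and 4 (0% and 50%), and other TCA genes 2 and 3 (14.3% and 21.4%). In the pentose phosphate group the falls included Tigar (-2.68 ± 0.40) and Rpe, the epimerase (-2.62 ± 0.24). G6pdx, the rate-limiting dehydrogenase that opens the pathway, was named here after its values were seen: it fell from 5465, 6105, 6234 and 5699 normalised counts to 1265, 1263, 1105 and 1421 (-2.22 ± 0.17, limma adjusted p = 2.93e-05).

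Among these other glycolytic genes, the gluconeogenic phosphatases moved apart. Fbp2, a fructose bisphosphatase, had no more than 0.93 normalised counts in any bone marrow library and 449.7, 144.2, 61.3 and 71.1 in small intestine (5.89 ± 0.60, limma adjusted p = 0.000121, a size that depends on the transformation at so few reads). It was highest in SI_6 and second in SI_7, the order of the epithelial sum, whose part in this rise was not tested. Fbp1 (-2.28 ± 0.39), the other bisphosphatase, and Pck2 (-1.83 ± 0.35), the mitochondrial carboxykinase, had the largest falls.

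At pyruvate and lactate, Ldhc, the testis-type lactate dehydrogenase that neighbours Ldha in the genome, had 55.9, 53.5, 41.1 and 33.5 normalised counts in bone marrow against 809.9, 937.5, 935.3 and 1335 in small intestine (4.34 ± 0.25, limma adjusted p = 5.42e-06). Per kb of exon it stood at 635.7 in small intestine against 2403 for Ldha. The importer and exporter Slc16a1 (MCT1) went the opposite way to Slc16a3, from 848.9, 881.7, 1020 and 757.7 to 366.8, 101.2, 61.3 and 91.3 (-2.81 ± 0.49, adjusted p = 0.00228). Among the kinases of pyruvate dehydrogenase, Pdk2 was called higher (1.95 ± 0.35, adjusted p = 0.00247), a call lost after median-centring over all genes (1.05, adjusted p = 0.0689), while Pdk3, named here after its values were seen, was called lower (-0.98 ± 0.19, adjusted p = 0.00359). Dlat, the acetyltransferase core of the complex, was called lower (-1.76 ± 0.25, adjusted p = 0.000796).

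Around the TCA cycle, the cytosolic malic enzyme Me1 was nearly absent from bone marrow (0, 1.96, 0 and 2.79 normalised counts) and low in small intestine (42.6, 51.3, 29.5 and 30.8), a called rise (3.68 ± 0.43, limma adjusted p = 0.000271). Me3, its mitochondrial relative, overlapped between tissues (2.22 ± 0.73, adjusted p = 0.0461) and lost its call without any library but BM_5. The dicarboxylate carrier Slc25a10 was called lower (-1.32 ± 0.34, adjusted p = 0.0168), as was Sdhd, a succinate dehydrogenase anchor (-0.97 ± 0.27, adjusted p = 0.0231), which lost its call without BM_1, BM_3, BM_4, SI_7 or SI_11 (adjusted p from 0.0504 to 0.0634).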

How the data were processed

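RNA from the 8 libraries was amplified to cDNA, and single-end reads were aligned to GRCm38 (Ensembl annotation) and counted per gene by the authors with the nf-core/rnaseq pipeline. The aligner chosen within it and its strand setting are not stated. The deposited values are on a log2 scale: the authors' DESeq2 variance-stabilised expression, with R 4.0.3 per the labels. Inverting that transformation gave whole reads (within 0.05) for 100.0% of values and size factors from 0.721 to 1.53. Normalised counts are these reads divided by the size factor. Column names match a tissue, not a single sample, so the 4 libraries of a tissue carry no sample number.

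Differences (small intestine minus bone marrow) were fitted to the deposited log2 values of all 38392 genes with limma 3.58.1 (R 4.3.3), using a constant prior, no filter and no covariate, and Benjamini-Hochberg adjustment with a threshold of 0.05. Isoform shares, in reads per kb of merged GENCODE M21 exons, were tested by exact 2-sided permutation. Tests were checked on simulated data. The members and lists were chosen with earlier results of these data known. All 47 members were accounted for. Values in every library were given for the isoform families, for genes at the entry and exit of a pathway, and for the largest rise and fall of each pathway. Of 58 other pathway genes, up to 2 rises and 2 falls per pathway were named, and 1 of them is not reported here. Filtering, 2 median-centrings, quantile normalisation, another prior, voom on recovered reads, other gene lengths and leaving out each library were the alternatives.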

Additional observations from a re-analysis of the deposited data

Results flagged for a closer look

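In 6 of 170 groups of 4 values, a single library stood apart by Dixon's ratio, the gap to its nearest neighbour divided by the range. Chance sets a library apart in about 1 in 20 such groups, which is 8.5 here. Hk2 in bone marrow was lowest in BM_5 (ratio 0.894, 1148 normalised counts against 1239 to 1250). Ogdh in small intestine was highest in SI_11 (0.88, 3415 against 2977 to 3026). Suclg1 in small intestine was highest in SI_6 (0.865, 399.5 against 206.8 to 226). The share of Mdh1 in the malate dehydrogenase pair was highest in SI_6 (0.832, 14.4% against 7.75% to 8.87%). Fbp2 in bone marrow was highest in BM_5 (1.0, 0.93 normalised counts against 0 in the other libraries). The erythroid sum in small intestine was lowest in SI_11 (0.889, 52.2 normalised counts against 120.3 to 128.8).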

How the results depend on the processing

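Of the 31 members called, 23 kept call and sign under every alternative with a test, 27 without any 1 library, and 26 under every scaling, filter, prior and voom. Median-centring over all genes moved the counts most: 4285 genes of the table were then called higher and 10216 lower, in place of 8465 and 4937, and 4 members were called higher in place of 9. Without any 1 library, members called higher ranged from 8 to 10 and lower from 19 to 25. Over the whole table the ranges were 6701 to 9596 and 4281 to 5166. Median-centring over all genes turned the sign of Pfkm (-0.25), Aldoa (-0.86), Ldha (-0.47), Pdhb (-0.79), Taldo1 (-0.06), Cs (-0.30), Ogdh (-0.66), Dlst (-0.48) and Pcx (-0.85). Quantile normalisation turned Aldoa (-0.54), Ldha (-0.27), Ogdh (-0.13) and Pcx (-0.67). Centring on genes with a mean of at least 10 turned Aldoa (-0.03) and Pcx (-0.01), and voom turned Aldoa (-0.05) and Pcx (-0.04). Without 1 library, Aldoa ranged from -0.07 to 0.13, Pcx from -0.23 to 0.28 and Idh3b from -0.22 to 0.06. Of the shares, Slc2a1 differed by 0.326 points with coding length in place of exon length, Pfkm by -0.174 points with coding length, by -0.00191 as a log2 ratio to the rest of its family and by -0.931 to 1.55 points without 1 library, and Aldoa by -0.374 to -0.211 points without 1 library, with its call lost in 5 of 8 sets. The cause of these turns was not tested. No paired analysis was possible because bone marrow and small intestine share no replicate number in the labels. Depth limits the scarce genes, such as Ldhb in small intestine and Slc2a6 and Pcx, where a few reads set the value.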
